A study of Mus musculus with 6 samples.

Results

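Serpins are a family of proteins that mostly inhibit proteases. The genes described here are those whose symbol on the Affymetrix mouse array starts with Serpin. They numbered 40 of the 18194 genes with a probe set of a single symbol, and each gene was read from its brightest probe set. An inhibitory serpin offers a protease a flexible loop, and the cleaved loop folds into the body of the serpin and traps the protease in an inactive complex. A few members have lost this activity and carry hormones or guide the folding of collagen. In the mouse testis the family is best known for Serpina5, whose loss makes male mice sterile with a leaky seminiferous epithelium.

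RNA from whole testes of mice aged 12 weeks was measured on 6 arrays. Of these, 3 came from SCARKO-jsd mice, which carried the jsd (juvenile spermatogonial depletion) mutation of Utp14b and also a conditional knockout made in Sertoli cells, the nurse cells of the seminiferous tubules. The other 3 came from jsd mice, which carried the jsd mutation alone. That mutation is known to leave testes with few germ cells beyond spermatogonia, and the germ cell content of these testes was not measured. The driver of the conditional knockout, the strain and the origin of each RNA are not given in the sources used here, and p-values measure the spread among these arrays. The question is which transcripts of such testes change when the Sertoli cell knockout is added.

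Every value is log2 expression after RMA (background correction, quantile normalization and probe set summary), and differences are given as SCARKO-jsd minus jsd. Genes whose mean over the arrays lay up to 6.64, the lowest 40% of genes, were taken as dim and left out of the test, which kept 10916 genes and 14 of the 40 Serpin genes. Those 14 had both group means above the limit, so none passed it through one group alone. A gene is said to have risen or fallen only if its limma adjusted p (Benjamini-Hochberg over the 10916 genes) was under 0.05. In whole testes, fewer cells of a type and less RNA per cell cannot be told apart.

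One array, SCARKO-jsd 2, was unlike the rest. Over the tested genes it correlated with the others at 0.952 to 0.973, whereas the other 5 correlated at 0.973 to 0.994 with each other, and its excess of 3' over 5' signal for beta-actin was 1.66 log2 units, against 0.70 to 0.98. Results are therefore given with and without it where it matters. The androgen-dependent gene Rhox5 was at 5.80 ± 0.34 in SCARKO-jsd and 10.14 ± 0.36 in jsd testes (log2 expression, SD, n = 3), with no overlap of the arrays.

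A single Serpin gene passed the test. Serpina3n rose 2.07-fold in SCARKO-jsd testes, and the other 13 tested members did not pass. The share of 7.14% called thus rests on 1 gene, against 3.57% of all genes tested (1.78% higher and 1.8% lower). An unadjusted p under 0.05 was found for 4 of the 14, against 18% of all genes tested. For 5 of the 14 members (35.7%) the SCARKO-jsd and jsd arrays were fully separated, as they were for 24.6% of all genes tested (15.1% higher and 9.49% lower). These were Serpina3n, Serpinb6a and Serpinf1, higher in SCARKO-jsd, and Serpina5 and Serpina3a, lower. The median log2 fold change was 0.12 over the 14 members and 0.04 over all genes tested, and 10 of the 14 had a higher mean in SCARKO-jsd testes. Both medians and this count use all arrays. When SCARKO-jsd 2 was left out, the median over all genes tested was 0.0029 and Serpinb9 turned to -0.031. The median over the members was not computed without that array. Without SCARKO-jsd 2, 1 member was again called, Serpina3n, against 7.04% of all genes tested, and 7 of the 14 were fully separated, against 38.6%.

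**Figure D1:**
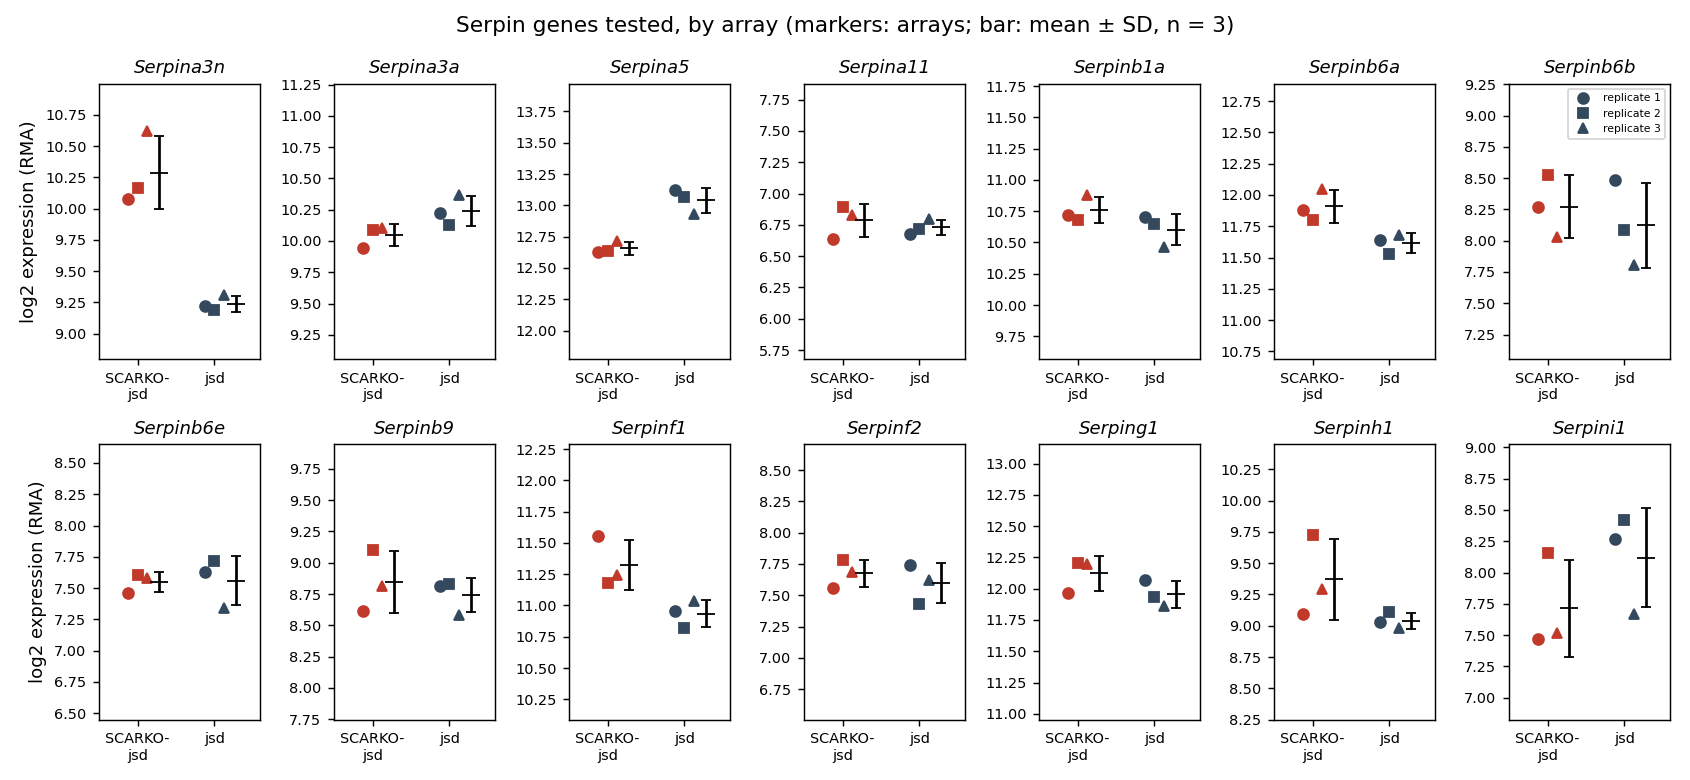
Log2 expression (y axis, each panel spanning the same range) of the 14 tested Serpin genes in SCARKO-jsd (left, red) and jsd (right, blue) testes. Markers are arrays, with the shape giving the replicate number, and bars are the mean ± SD of 3 arrays. Serpina3n lay between 10.07 and 10.62 in SCARKO-jsd and between 9.19 and 9.31 in jsd testes, and the other panels show smaller gaps or overlap.

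Serpina3n is a secreted inhibitor of serine proteases, known in mice as an acute-phase gene. It was at 10.07, 10.16 and 10.62 in SCARKO-jsd 1, 2 and 3, against 9.22, 9.19 and 9.31 in jsd 1, 2 and 3. The highest jsd array was thus well under the lowest SCARKO-jsd array, and the jsd arrays differed little among themselves (SD 0.061) while SCARKO-jsd 3 stood above its group (SD 0.29). The log2 fold change was 1.05 ± 0.15 (SE), with a 95% confidence interval of 0.71 to 1.39, or 2.07-fold, and the limma adjusted p was 0.0113. Without SCARKO-jsd 2 the rise was 1.11 (limma adjusted p = 0.00539). The call ended without jsd 1 (limma adjusted p = 0.0723) or jsd 2 (0.0640), with log2 fold changes of 1.04 and 1.02. It also ended when every probe set was tested by itself (0.0623).

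Serpina5, the protein C inhibitor, blocks serine proteases of plasma and semen, and in the mouse testis it is known as an androgen-dependent gene of Sertoli cells. It was at 12.62, 12.63 and 12.72 in SCARKO-jsd 1, 2 and 3, against 13.12, 13.06 and 12.93 in jsd 1, 2 and 3. All SCARKO-jsd arrays were below all jsd arrays, and the gap was narrow. The log2 fold change was -0.38 ± 0.090 (SE, 95% confidence interval -0.59 to -0.17), outside the threshold at a limma adjusted p of 0.0663. It was -0.37 without SCARKO-jsd 2 (limma adjusted p = 0.0584). The threshold was passed with eBayes trend and robust (0.0216) and with array weights (0.0282), and adjusted p was 0.233 with each array centred on its median.

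The bases before the start sites of Serpina3n and Serpina5 are shown because these members differed most clearly in opposite directions and both stand in the Serpina group of chromosome 12. The windows are the 250 bases upstream of the RefSeq start (GRCm38.p6), chr12:104406458-104406707 on the plus strand for Serpina3n and chr12:104100863-104101112 on the plus strand for Serpina5, written 5′ to 3′. Capitals mark the letters AGAACA, the half-site bound by steroid hormone receptors, searched on both strands.
Serpina3n: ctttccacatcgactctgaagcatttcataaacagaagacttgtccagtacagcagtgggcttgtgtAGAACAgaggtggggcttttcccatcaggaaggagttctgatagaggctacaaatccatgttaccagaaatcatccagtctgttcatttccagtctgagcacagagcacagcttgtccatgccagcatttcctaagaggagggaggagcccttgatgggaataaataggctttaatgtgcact
Serpina5: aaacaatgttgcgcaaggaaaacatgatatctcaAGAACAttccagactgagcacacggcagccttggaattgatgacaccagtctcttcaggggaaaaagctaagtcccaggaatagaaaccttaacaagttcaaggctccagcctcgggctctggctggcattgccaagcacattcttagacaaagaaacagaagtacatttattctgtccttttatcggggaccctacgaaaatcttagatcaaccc

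Each window held the half-site once, 183 bases before the start of Serpina3n and 216 bases before that of Serpina5, counted from the first base of the match. The half-site stood in 16.08% of the 32851 windows of the same length in the RefSeq table. Among the 12 tested members with a window it stood in those of 4, the others being Serpina3a and Serpinb6e, and among all 34 members with a window in those of 11. Members are counted here as genes, with a match in any of their windows, and the 34 had 40 windows. Their counts are thus not directly comparable with shares of all windows. The paired site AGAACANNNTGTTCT stood in no member's window and in 3 windows in all (0.01%). The STAT site TTCNNNGAA, searched on both strands, stood in the windows of Serpina11 and Serpinb6a among the tested members (7.02% of all windows), and TATAAA, searched on the gene's strand, in that of Serpina3a (7.59%). A match is a run of letters and does not show a bound site.

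Serpina3a, a close relative of Serpina3n, was at 9.95, 10.09 and 10.10 in SCARKO-jsd and 10.22, 10.13 and 10.37 in jsd testes. The arrays did not overlap, by a small margin, and the log2 fold change of -0.19 ± 0.099 (SE) did not pass (limma adjusted p = 0.362). Serpina11 was at 6.64, 6.89 and 6.83 in SCARKO-jsd and 6.68, 6.71 and 6.80 in jsd testes, close to the dim limit and overlapping (log2 fold change 0.057 ± 0.098). The Serpina3 genes of the mouse arose by repeated duplication, and whether probes for one also bound transcripts of another was not tested.

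On chromosome 12 the RefSeq table listed 28 Serpina genes and pseudogenes, of which 13 had a value and 4 were tested. The groups were fully separated, in both directions, for 3 of the 4 tested genes, against 24.6% of all genes tested, and for 2 of the 9 dim ones, against 14.4% of all dim genes. Serpina3n, the last of them in order, was higher in SCARKO-jsd, and Serpina5 and Serpina3a, which stand side by side, were lower. Serpina3i, which is dim, was lower too (5.34, 5.44 and 5.36 in SCARKO-jsd, against 5.89, 5.82 and 5.59 in jsd testes). Serpina6, near the other end, was higher in SCARKO-jsd and is described below with the dim members.

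**Figure D2:**
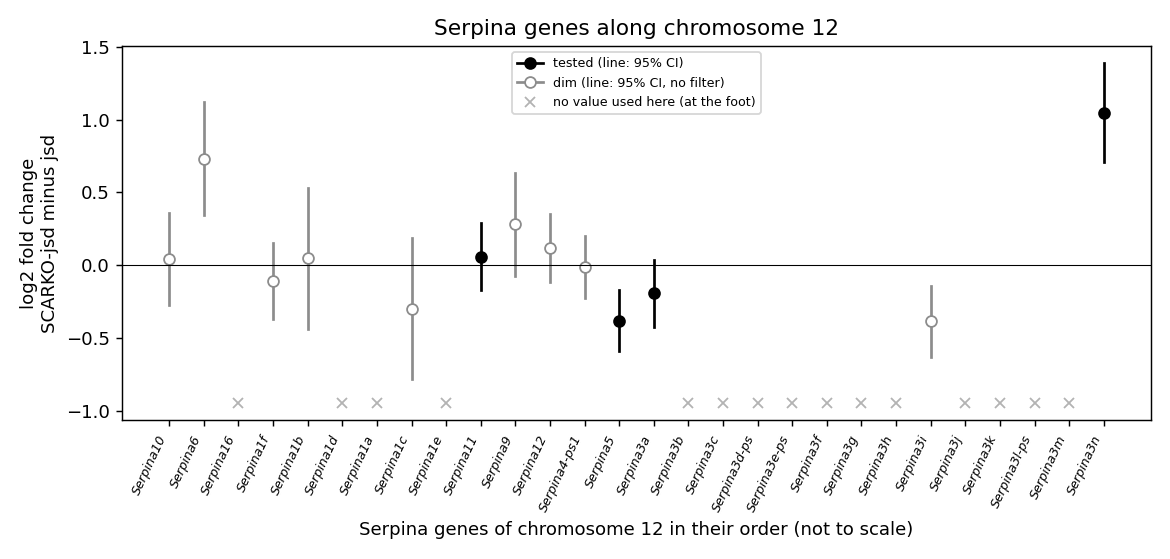
Log2 fold change (SCARKO-jsd minus jsd, y axis) of the Serpina genes of chromosome 12 in their RefSeq order (x axis, not to scale). Filled points are tested genes and open points are dim ones, with 95% confidence intervals, and crosses at the foot stand for genes with no value used here. Serpina3n (1.05) and Serpina6 (0.73) lie above 0, Serpina5 (-0.38) and Serpina3i (-0.39) below it, and most others near it.

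Intracellular serpins of clade B protect cells from proteases that leak from their own granules and lysosomes. Of 18 such genes 5 were tested, all from the group on chromosome 13, and none passed the test. Serpinb6a, an inhibitor of cathepsin G and trypsin-like proteases, was at 11.88, 11.80 and 12.05 in SCARKO-jsd and 11.64, 11.53 and 11.68 in jsd testes. Its arrays did not overlap, and the log2 fold change was 0.29 ± 0.099 (SE; limma adjusted p = 0.178, and 0.0750 without SCARKO-jsd 2). Array weights alone among the alternatives brought it past the threshold (0.0405).

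For the other 4 tested clade B genes the groups overlapped on the brightest probe set. Serpinb1a, an inhibitor of neutrophil elastase, was at 10.72, 10.68 and 10.88 in SCARKO-jsd and 10.70, 10.65 and 10.46 in jsd testes, with a log2 fold change of 0.15. Its other bright probe set, at 7.15, 7.24 and 7.18 in SCARKO-jsd and 7.08, 6.80 and 7.07 in jsd testes, did not overlap, and its log2 fold change of 0.21 did not pass when every probe set was tested by itself (limma adjusted p = 0.493). Serpinb9, which inhibits granzyme B, was at 8.62, 9.11 and 8.81 in SCARKO-jsd and 8.81, 8.83 and 8.59 in jsd testes. Its highest value was that of SCARKO-jsd 2, and the log2 fold change of 0.10 turned to -0.031 without that array and to -0.0076 with array weights. Serpinb6b was at 8.27, 8.52 and 8.03 in SCARKO-jsd and 8.48, 8.08 and 7.81 in jsd testes, with a log2 fold change of 0.15 that became 0.023 without SCARKO-jsd 2 and -0.0088 without jsd 3. Serpinb6e was at 7.46, 7.61 and 7.58 in SCARKO-jsd and 7.63, 7.71 and 7.34 in jsd testes. Its log2 fold change of -0.011 changed sign under 5 alternatives, and its only probe set is of the kind that can share probes with related genes. The 95% confidence intervals of Serpinb1a (-0.08 to 0.39), Serpinb9 (-0.23 to 0.43), Serpinb6b (-0.30 to 0.60) and Serpinb6e (-0.28 to 0.26) do not show that these genes were equal in the groups.

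Secreted serpins outside clade A covered complement, fibrinolysis, vessel growth and the nervous system. Serpinf1 encodes PEDF, a secreted factor that restrains vessel growth and has no inhibitory activity. It was at 11.55, 11.18 and 11.24 in SCARKO-jsd and 10.95, 10.82 and 11.03 in jsd testes, with no overlap, and the log2 fold change was 0.39 ± 0.12 (SE; limma adjusted p = 0.146, and 0.0566 without SCARKO-jsd 2). Its other bright probe set read 10.81, 9.75 and 10.43 in SCARKO-jsd and 10.21, 10.26 and 10.35 in jsd testes. There SCARKO-jsd 2 was the lowest array and the log2 fold change was 0.05, so the probe sets of Serpinf1 differed. The mean of both gave 0.22 (limma adjusted p = 0.576), while array weights took the brighter one past the threshold (0.0400).

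Serping1, the C1 inhibitor that restrains complement and kallikrein, was at 11.96, 12.21 and 12.19 in SCARKO-jsd and 12.07, 11.93 and 11.86 in jsd testes. The groups overlapped, and the log2 fold change was 0.17 ± 0.11 (SE; limma adjusted p = 0.461). Serpinf2, the plasma inhibitor of plasmin, was at 7.56, 7.78 and 7.68 in SCARKO-jsd and 7.74, 7.43 and 7.62 in jsd testes. Its log2 fold change of 0.078 turned to -0.0065 without jsd 2.

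Serpini1 encodes neuroserpin, an inhibitor of tissue plasminogen activator made mainly by neurons. It was at 7.47, 8.16 and 7.52 in SCARKO-jsd and 8.27, 8.42 and 7.67 in jsd testes. SCARKO-jsd 2 lay among the jsd arrays and jsd 3 near the SCARKO-jsd ones, and the log2 fold change was -0.41 ± 0.24 (SE; limma adjusted p = 0.439). A second bright probe set read 7.01, 7.66 and 7.01 in SCARKO-jsd and 8.48, 8.59 and 7.55 in jsd testes, with a similar order of arrays and a larger gap. Its log2 fold change was -0.98 ± 0.32 (SE), outside the threshold when every probe set was tested by itself (limma adjusted p = 0.300), and the remaining probe set, which is dim, gave 0.16. Without SCARKO-jsd 2 the brightest probe set gave -0.63 (limma adjusted p = 0.110).

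Serpinh1 encodes HSP47, a chaperone of the endoplasmic reticulum that binds procollagen and inhibits no protease. It was at 9.10, 9.72 and 9.29 in SCARKO-jsd and 9.03, 9.11 and 8.98 in jsd testes. SCARKO-jsd 2 was the highest array and SCARKO-jsd 1 lay within the jsd range. The log2 fold change of 0.33 ± 0.16 (SE; limma adjusted p = 0.327) was 0.15 without SCARKO-jsd 2, and the other bright probe set gave 0.26.

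**Figure D3:**
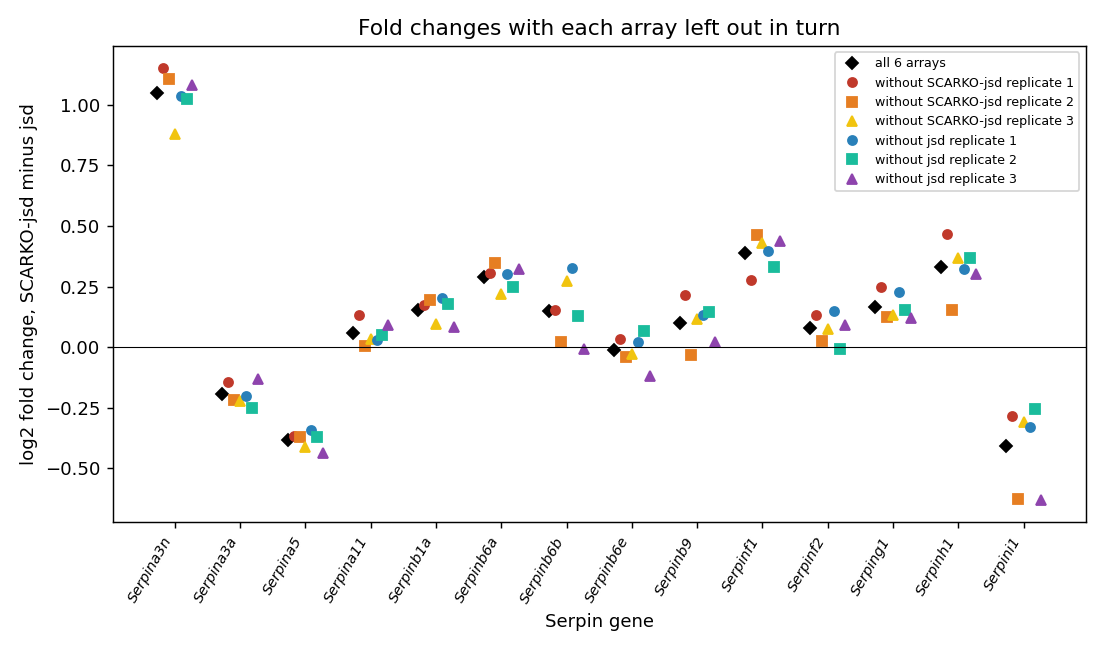
Log2 fold change (SCARKO-jsd minus jsd, y axis) of the 14 tested Serpin genes with all 6 arrays (black diamonds) and with each array left out in turn (coloured markers). Serpina3n stayed between 0.88 and 1.15, while Serpinh1, Serpini1 and Serpinb6b moved with the array left out and Serpinb6b, Serpinb6e, Serpinb9 and Serpinf2 crossed 0.

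The other 26 Serpin genes were dim, with group means between 3.14 and 6.28. Fitted without the filter, none of the 26 was called (limma), against 0.962% of all dim genes. Their median log2 fold change was 0.04, as it was over all dim genes, and the arrays did not overlap for 7 of them (26.9%), against 14.4% of all dim genes. Higher in SCARKO-jsd testes were Serpina6, Serpinb11 and Serpinb9g, and lower were Serpina3i, Serpina7, Serpinb3a and Serpinb6c. Among the 26 were plasma inhibitors of the liver, such as Serpinc1 (antithrombin, 4.68 in SCARKO-jsd and 4.46 in jsd testes), Serpind1 (heparin cofactor II, 5.17 in SCARKO-jsd and 5.11 in jsd testes) and Serpina10. Serpins of skin and other epithelia, such as Serpinb5 (maspin), were also among them.

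Serpina6, the corticosteroid-binding globulin that carries glucocorticoids and progestins in plasma, had the widest gap among the dim members. It was at 5.90, 6.60 and 6.35 in SCARKO-jsd and 5.52, 5.62 and 5.52 in jsd testes. SCARKO-jsd 1 was closest to the jsd arrays, and all 6 values were under the dim limit of 6.64. The log2 fold change was 0.73 ± 0.17 (SE), with a limma adjusted p of 0.0738 in the fit without the filter. It was 0.57 when SCARKO-jsd 2 was also left out (0.0536), an alternative chosen after the values were seen. Serpina7, the thyroxine-binding globulin on chromosome X, was at 3.04, 3.15 and 3.23 in SCARKO-jsd and 3.38, 3.44 and 3.41 in jsd testes, among the dimmest values of the family. The sizes of differences at such levels are uncertain.

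**Figure D4:**
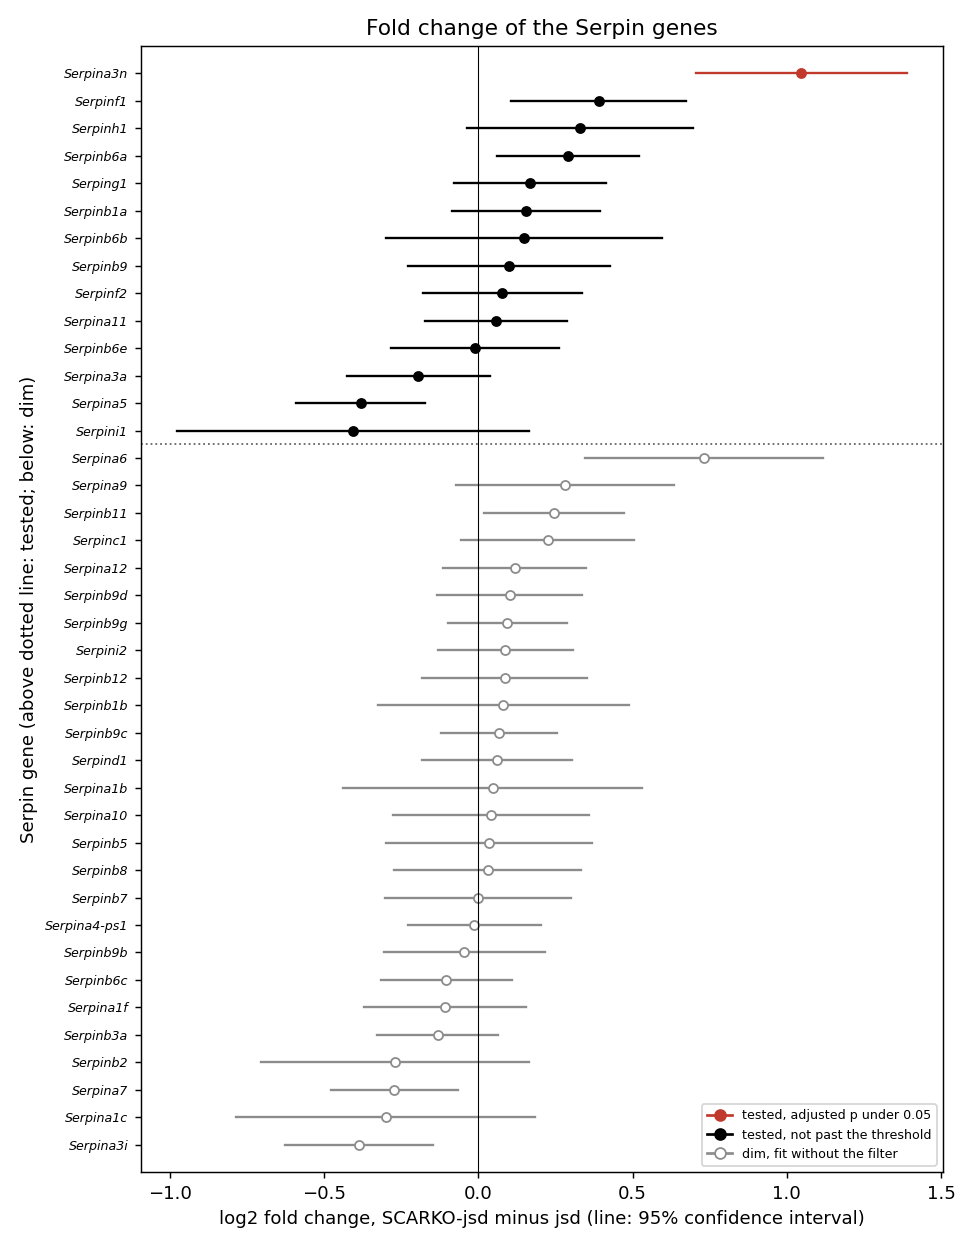
Log2 fold change (SCARKO-jsd minus jsd, x axis) of the 40 Serpin genes with 95% confidence intervals, tested genes above the dotted line and dim genes below it. Serpina3n (red, 1.05) is the single called gene, and the intervals of Serpina5, Serpinb6a, Serpinf1, Serpina6, Serpina7, Serpinb11 and Serpina3i also leave out 0 before adjustment over all genes.

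Another 3 probe sets carried several Serpin symbols and named no gene. All were dim. The probe set of Serpina1d and Serpina1a had a log2 fold change of 0.16, that of Serpina1e, Serpina1c and Serpina1b of -0.04, and that of Serpinb9h, Serpinb9g, Serpinb9e and Serpinb9f of -0.01.

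The tested proteases that serpins act on did not pass the test. Over all genes tested, 3.57% were called and 18% had an unadjusted p under 0.05. Of 34 measured serine proteases 8 were above the dim limit, with a median log2 fold change of 0.18, and none passed by limma, while 3 had an unadjusted p under 0.05. These were Masp1 and C1s1, proteases of the complement cascade held by the C1 inhibitor, at 0.58 and 0.40, and Htra1, a secreted protease of the matrix, at 0.31 (limma adjusted p = 0.160, 0.181 and 0.182 in this order). Without SCARKO-jsd 2, Masp1 was at 0.37, C1s1 at 0.27 and Htra1 at 0.29. Plat, the tissue plasminogen activator that neuroserpin inhibits, was at 9.50, 10.17 and 9.40 in SCARKO-jsd and 9.14, 9.36 and 9.77 in jsd testes. The groups overlapped, and its log2 fold change of 0.27 became 0.022 without SCARKO-jsd 2. Of 7 cysteine proteases that intracellular serpins are known to inhibit, all were tested and none passed by limma, with 1 at an unadjusted p under 0.05 and a median of 0.10. Ctsk had a log2 fold change of 0.39 (limma adjusted p = 0.110), Casp1 of 0.15, Ctss of 0.10 and Ctsl, a main protease of Sertoli cells, of -0.10.

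Among 10 tested receptors and cofactors of serpins 1 fell and 9 did not pass, against 1.8% of all genes tested that fell. Their median log2 fold change was 0.06. Lrp8, a lipoprotein receptor that takes up selenoprotein P in the mouse testis, was at 8.56, 8.69 and 8.32 in SCARKO-jsd and 9.56, 9.27 and 9.89 in jsd testes. No arrays overlapped, and it fell by 1.05 ± 0.17 (SE) on the log2 scale (limma adjusted p = 0.0195), with -2.24 on another bright probe set. The call of Lrp8 ended without SCARKO-jsd 3 (limma adjusted p = 0.0808), without jsd 1 (0.0968) and with every probe set tested by itself (0.0888). Procr, the endothelial receptor of protein C, had a log2 fold change of 0.90 ± 0.32 (limma adjusted p = 0.190), Itgb3 of 0.29 and Vtn, the cofactor of plasminogen activator inhibitor, of 0.18. Of 14 tested folding partners that modify or fold collagen beside Serpinh1, none passed by limma, with a median of -0.04. An unadjusted p under 0.05 was found for 2 of them, against 18% of all genes tested. Fkbp14 had a log2 fold change of -0.26, P4ha2 of -0.51, P4hb of 0.24 and Crtap of -0.14.

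A list of other serine protease inhibitors and related proteins held 2 called genes. Some of its members are built on the Kunitz, Kazal and WAP folds or on alpha-2-macroglobulin, and others are not. Of 12 tested 2 rose and 10 did not pass, against 1.78% of all genes tested that rose. The median log2 fold change of the 12 was 0.12. Kazald1, a secreted protein with a Kazal-type domain, was at 8.71, 8.71 and 8.32 in SCARKO-jsd and 7.32, 7.27 and 7.29 in jsd testes. It rose by 1.28 ± 0.12 (SE) on the log2 scale (limma adjusted p = 0.00264) and stayed called under each alternative run. Wfdc1, a secreted WAP-domain protein, rose by 0.80 ± 0.15 (limma adjusted p = 0.0306), and its call ended whenever an array other than SCARKO-jsd 2 was left out (up to 0.116). Eppin, a sperm coat protein with both WAP and Kunitz folds, had a log2 fold change of -0.50 ± 0.12 (limma adjusted p = 0.0681), and Spink4 of 0.33.

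**Figure D5:**
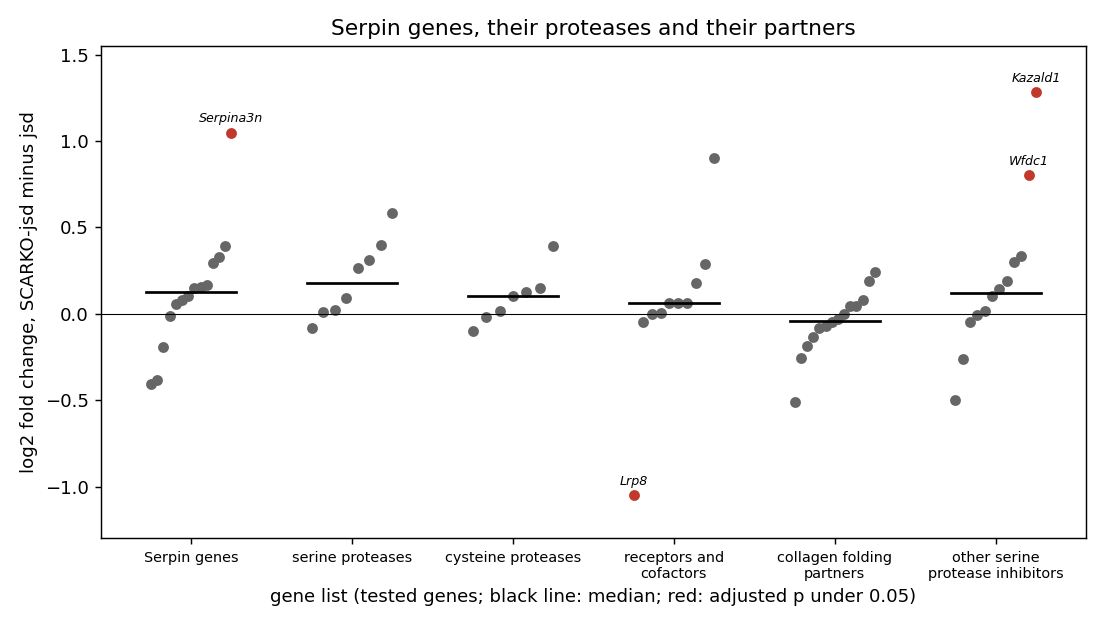
Log2 fold change (SCARKO-jsd minus jsd, y axis) of the tested Serpin genes and of the tested genes of 5 related lists (x axis). Points are genes, red where the limma adjusted p was under 0.05, and black lines are medians, which lie between -0.04 and 0.18. Serpina3n, Lrp8, Kazald1 and Wfdc1 are the called genes.

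Marker genes of several cell types moved with the genotype, and their part in the Serpin differences was not tested. Over all genes tested, 1.78% rose and 1.8% fell, and 18% had an unadjusted p under 0.05. Of 13 androgen-dependent Sertoli genes, a list that includes Serpina5 and Eppin and whose direction was known, 6 fell and 7 did not pass. Rhox5 and Corin, among those that fell, had SCARKO-jsd means under the dim limit (5.80 and 6.35). They passed the filter through the jsd testes alone (10.14 and 9.40), so the sizes of their falls are uncertain. Of 19 Sertoli markers 4 fell (Drd4, Rhox5, Tsx and Wt1) and 15 did not pass. Drd4, Rhox5 and Tsx are also among the 6 androgen-dependent genes that fell, so the lists are not separate. The summed linear signal of the Sertoli markers was 94000 to 104015 in SCARKO-jsd and 99451 to 109691 in jsd testes. Of 11 spermatogonia markers 3 rose and 2 fell, with sums of 8399 to 10072 in SCARKO-jsd and 7273 to 8607 in jsd testes. Of 5 tested meiotic and spermatid markers 2 rose, Sycp3 and Meig1. The sums over all 13 were 1563 to 1857 in SCARKO-jsd and 988 to 1150 in jsd testes, with no overlap. These sums pool genes that differed: the groups overlapped for the spermatid genes Prm1 (log2 fold change 0.08) and Prm2. The latter is dim, at 5.66 in SCARKO-jsd and 5.64 in jsd testes. By limma no tested marker passed among 10 for macrophages, 8 for Leydig cells, 8 for myoid cells and 3 for adipocytes. An unadjusted p under 0.05 was found for 1 macrophage marker and for 0 in each of the others. Of 6 tested endothelial markers Kdr fell, while the median log2 fold change of the list was 0.20. The 5 that did not pass all had a higher mean in SCARKO-jsd testes when all arrays were used. Without SCARKO-jsd 2 the log2 fold changes were 0.0038 for Tek, -0.016 for Emcn and -0.082 for Cdh5. Those of Vwf and Egfl7 were then 0.40 and 0.093. Epididymis markers were dim in 7 of 7. Of 12 liver plasma protein genes 10 were dim, Alb among them, while Ahsg (fetuin A) rose, at 8.04 in SCARKO-jsd and 5.69 in jsd testes, where it was under the dim limit, so that the size of its rise is uncertain. Ttr, the only other tested gene of the list, did not pass and had a log2 fold change of -0.21. With Ahsg included, the sums of the list were 735 to 968 in SCARKO-jsd and 628 to 666 in jsd testes. Sums without Ahsg were not computed. Of the 16 genes called in these lists, all 16 were called without SCARKO-jsd 2, and 5 (Ahsg, Drd4, Rhox5, Sycp3 and Tsx) with any 1 array left out.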

How the data were processed

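The authors deposited log2 values, 1 for each probe set, that RMA of the affy package had produced according to the submitters' processing notes. Versions and the genome build are not given in the sources used here. The table holds 45101 probe sets, 34958 with 1 gene symbol in GEO's platform annotation, 932 with several and 9211 with none. All 40 Serpin genes matched RefSeq (GRCm38.p6) by gene ID under the same symbol. They have 56 single-symbol probe sets.

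Each gene was tested by limma 3.58.1 (lmFit, eBayes without trend) in R 4.3.3, two-sided, with genotype as the only term. Alternatives changed the filter on dim genes (none, or the lowest 60%), the probe sets, the normalization, the variance model, array weights and the replicate block, or left out each array. The fit was tested on simulated data. Figures used matplotlib 3.10.9. The number of arrays, 3 per group, limits precision (median SE of a log2 fold change 0.11).

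The members and the 16 other gene lists were chosen with earlier results of these data known. All tested Serpin genes are named, and up to 4 genes with the smallest p in each other list. In cell type lists only genes that passed are named, with Alb, Prm1, Prm2 and the other tested endothelial markers chosen after their values were seen. The gene knocked out in Sertoli cells is not reported here.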

Additional observations from a re-analysis of the deposited data

How the results depend on the processing

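Of 205 comparisons of a tested Serpin gene with its value under an alternative, 189 kept their direction and their side of the threshold. Serpina3n stayed higher in SCARKO-jsd under all 15 alternatives (log2 fold change 0.88 to 1.17, limma adjusted p 0.00151 to 0.0723) and was called in 12 of them. Serpina5 stayed lower in all 15 (-0.44 to -0.34, adjusted p 0.0216 to 0.265) and was called in 2. Called Serpin genes numbered 1 with all arrays and 0 to 1 with an array left out. They numbered 0 with every probe set tested by itself, 2 with trend and robust, 4 with array weights, 0 at an adjusted p threshold of 0.01 and 2 at 0.1. The fit of the array weights stopped before it converged. Over all genes the count of 390 calls (194 higher, 196 lower) was 78 without jsd 1, 119 without jsd 2, 239 without jsd 3, 141 without SCARKO-jsd 3 and 768 without SCARKO-jsd 2. It was 135 with every probe set, 860 with array weights, 111 at a threshold of 0.01 and 728 at 0.1. Serpin genes whose sign turned were all near 0. Serpinb6e turned to 0.033 with median centring and to 0.0048 with a further quantile normalization, and Serpinb9 to -0.0076 with array weights. With an array left out, Serpinb6e ran from -0.12 to 0.065, Serpinb9 from -0.031 to 0.21, Serpinb6b from -0.0088 to 0.33 and Serpinf2 from -0.0065 to 0.15. The causes were not tested. With a replicate block the counts were 397 of all genes and 1 Serpin gene, Serpina3n. Same-numbered arrays were not taken as pairs, since the correlations of their deviations from the group means were -0.21, 0.23 and 0.24, and 2 of 6 arrays correlated best with their own number. The signal of the 26 dim members is too low to size their differences.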
